A study of Mus musculus with 7 samples.

Results

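Fibroblast growth factors (FGFs) and their receptors were followed in mouse embryonic fibroblasts (MEFs) under 6 forms of environmental limitation. The 9 genes were taken by symbol from the deposited expression table of 49382 genes: the ligand genes Fgf2, Fgf5, Fgf7, Fgf10 and Fgf18, the related intracellular factor Fgf13, the receptor genes Fgfr1 and Fgfr2, and the receptor-like gene Fgfrl1. Each symbol stood on a single row, and all 9 belong to the 12909 genes kept for a mean level of 2 TPM or more. Levels are given as TPM (a transcript's share of its library, scaled up), which divides each library's total of 1000000 among transcripts after a correction for length, so that levels of different genes can be set side by side.

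The MEFs were wild-type primary cells from E13.5 to E14.4 embryos without head and red tissue such as liver, used at passages 3 to 7, and each of the 7 libraries came from 1 culture condition. The control was left untreated, and no time of collection is given for it. As it serves treatments of 3 and of 10 hours, treatment and time in culture cannot be told apart in changes against it. Oxidative stress was 10 µM sodium arsenite, which reacts with thiols, for 3 hours, and osmotic stress was 100 mM added NaCl for 3 hours. Glucose depletion and glutamine depletion were 10 hours in medium without that nutrient, ER stress was 1 µM thapsigargin, which blocks the calcium pump of the endoplasmic reticulum, for 10 hours, and hypoxia was 0.1% oxygen for 10 hours. Replicates were lacking throughout, so differences could not be weighed against replicate error, no p-value is given, and the depth behind each level is unknown. "Rose" and "fell" below mean a change of more than 2-fold in log2(TPM + 1) against the control library, a scale that understates the changes of genes with low expression.

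FGFs signal by bridging receptor tyrosine kinases together with heparan sulfate, the sugar chain of cell surface and matrix proteoglycans, and the signal runs through the RAS, RAF, MEK and ERK kinases. Connective tissue cells are a classic source of FGFs for neighbouring epithelia. FGF7 and FGF10 act mainly on the splice form of FGFR2 that epithelial cells make, whereas FGF2 binds most receptor forms and also acts on fibroblasts and endothelium. FGFRL1 binds FGFs but lacks the kinase domain, and FGF13 stays inside the cell.

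Treatment markers and cell identity were read from the same libraries. Hmox1 was highest in oxidative stress (6055 TPM against 266 in the control), but was also at 1802 in ER stress. Hspa5 was highest in ER stress (12611 against 1165) and Akr1b3 in osmotic stress (575 against 90.5). Txnip was at 16.1 TPM in glucose depletion against 70.7, although lower still in osmotic stress at 7.22. Vegfa was at 275 TPM in hypoxia against 78.6, but higher still in glutamine depletion at 402 and in oxidative stress at 322. All 10 fibroblast markers were kept, and their summed level lay between 10293 and 12862 TPM in 6 libraries and at 6202 TPM in ER stress. The summed markers of other lineages were between 6.21 and 16.4 TPM for 8 epithelial genes, 4.09 and 9.07 for 5 endothelial genes, 7.92 and 17.9 for 7 macrophage genes, 1.41 and 4.68 for 5 neural crest and Schwann cell genes, and 9.71 and 33.7 for 5 chondrogenic genes. The 5 myogenic genes summed to between 50.9 and 187 TPM through Des and Acta1, with Myf5 at 0 in every library. In ER stress the fibroblast, macrophage, myogenic, chondrogenic and neural crest sums were at their lowest and the epithelial sum at its highest, and the part of cell composition in the ER stress values of the FGF genes was not tested. In such bulk samples, fewer cells of a kind and less RNA per cell cannot be told apart.

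The start sites of the ligand genes lie in unlike sequence. The upstream windows shown are those of the 3 ligand genes that rose together in glutamine depletion (Fgf2, Fgf5 and Fgf7) and of Fgf18, which had the lowest value of all in ER stress. Each is the 250 bases before the RefSeq start site on GRCm38.p6, printed 5′ to 3′ on the gene's own strand, and capitals mark CG dinucleotides, a feature chosen after the values were seen. Fgf2 is on the plus strand at chr3:37348403-37348652, Fgf5 on the plus strand at chr5:98253934-98254183, Fgf7 on the plus strand at chr2:126034408-126034657, and Fgf18 on the minus strand at chr11:33147401-33147650. In GENCODE M21 the Fgf2 gene already starts at 37348346, so its window lies inside the annotated gene. The Fgf5, Fgf7 and Fgf18 windows end where the annotated gene begins.
Fgf2: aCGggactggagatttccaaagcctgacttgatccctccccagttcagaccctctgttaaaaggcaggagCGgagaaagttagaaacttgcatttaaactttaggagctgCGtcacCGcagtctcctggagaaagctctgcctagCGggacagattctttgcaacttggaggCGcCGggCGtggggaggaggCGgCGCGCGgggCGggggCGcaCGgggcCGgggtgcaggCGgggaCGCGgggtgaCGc
Fgf5: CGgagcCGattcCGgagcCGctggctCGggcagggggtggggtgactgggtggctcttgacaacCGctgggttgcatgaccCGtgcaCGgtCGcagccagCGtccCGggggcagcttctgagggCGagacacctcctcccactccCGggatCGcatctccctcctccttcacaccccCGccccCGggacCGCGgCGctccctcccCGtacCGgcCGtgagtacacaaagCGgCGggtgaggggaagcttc
Fgf7: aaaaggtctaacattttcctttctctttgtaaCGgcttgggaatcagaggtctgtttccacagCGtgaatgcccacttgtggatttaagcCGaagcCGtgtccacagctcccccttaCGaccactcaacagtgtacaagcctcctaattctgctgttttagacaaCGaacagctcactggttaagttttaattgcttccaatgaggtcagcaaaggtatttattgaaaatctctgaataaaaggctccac
Fgf18: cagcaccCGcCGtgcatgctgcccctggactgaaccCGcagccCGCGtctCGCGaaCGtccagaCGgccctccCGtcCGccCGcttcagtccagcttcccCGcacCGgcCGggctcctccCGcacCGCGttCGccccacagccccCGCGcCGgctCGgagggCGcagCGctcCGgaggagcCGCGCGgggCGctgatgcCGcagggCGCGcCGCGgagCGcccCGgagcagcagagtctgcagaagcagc
The counts of CG dinucleotides were 20 for Fgf2, 24 for Fgf5, 6 for Fgf7 and 37 for Fgf18, against a median of 6 over 32851 RefSeq promoter windows, and 97.8% of all windows held fewer than Fgf18. The genes that rose together in glutamine depletion thus had windows at the median and well above it. In the whole 300-base windows, which add 50 bases after the start site, 8 motifs were sought on both strands, and none was found in Fgf2, Fgf5, Fgf7 or Fgf18. These were AP-1 (TGACTCA, in 5.20% of all windows), CRE (TGACGTCA, 1.79%), the ATF4 element CARE (TGATGCAA, 0.895%), the hypoxia response core (ACGTG, 19.6%), the TEAD site of YAP1 (CATTCC, 14.7%), and the ER stress element (0.119%), NFAT5 (4.97%) and CArG (1.63%) motifs. Windows of 8 of the 9 genes were matched by symbol, and Fgfr1 had no matching window to search. The hypoxia response core overlaps itself on the other strand in Fgfrl1 and in Fgfr2, and the NFAT5 motif was found in Fgf10. Like that of Fgf2, the Fgf10 and Fgfrl1 windows lie inside the annotated gene. The Fgfr2 window, on the minus strand at chr7:130266759-130267058, lies upstream of all but 1 of the 27 annotated Fgfr2 transcripts. Those reach no further than 130266263. A match or its absence in these letters describes the window alone.

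In the control library the receptor genes were the most abundant of the 9. Fgfr2 stood at 121 TPM and Fgfr1 at 102 TPM, ahead of Fgf7 at 51.3, Fgf2 at 46.9 and Fgfrl1 at 36.7. Fgf10, Fgf13, Fgf18 and Fgf5 were far lower, at 8.71, 7.77, 5.04 and 3.52 TPM. By the median over the 7 libraries the order was Fgfr1, Fgfr2, Fgf7, Fgf2, Fgfrl1, Fgf13, Fgf10, Fgf5 and Fgf18. Fgfrl1 was above Fgf13 in 7 of 7 libraries, whereas Fgf7 was above Fgf2 in 4, Fgf13 above Fgf10 in 3 and Fgf5 above Fgf18 in 4, so these neighbours changed places between conditions.

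**Figure D1:**
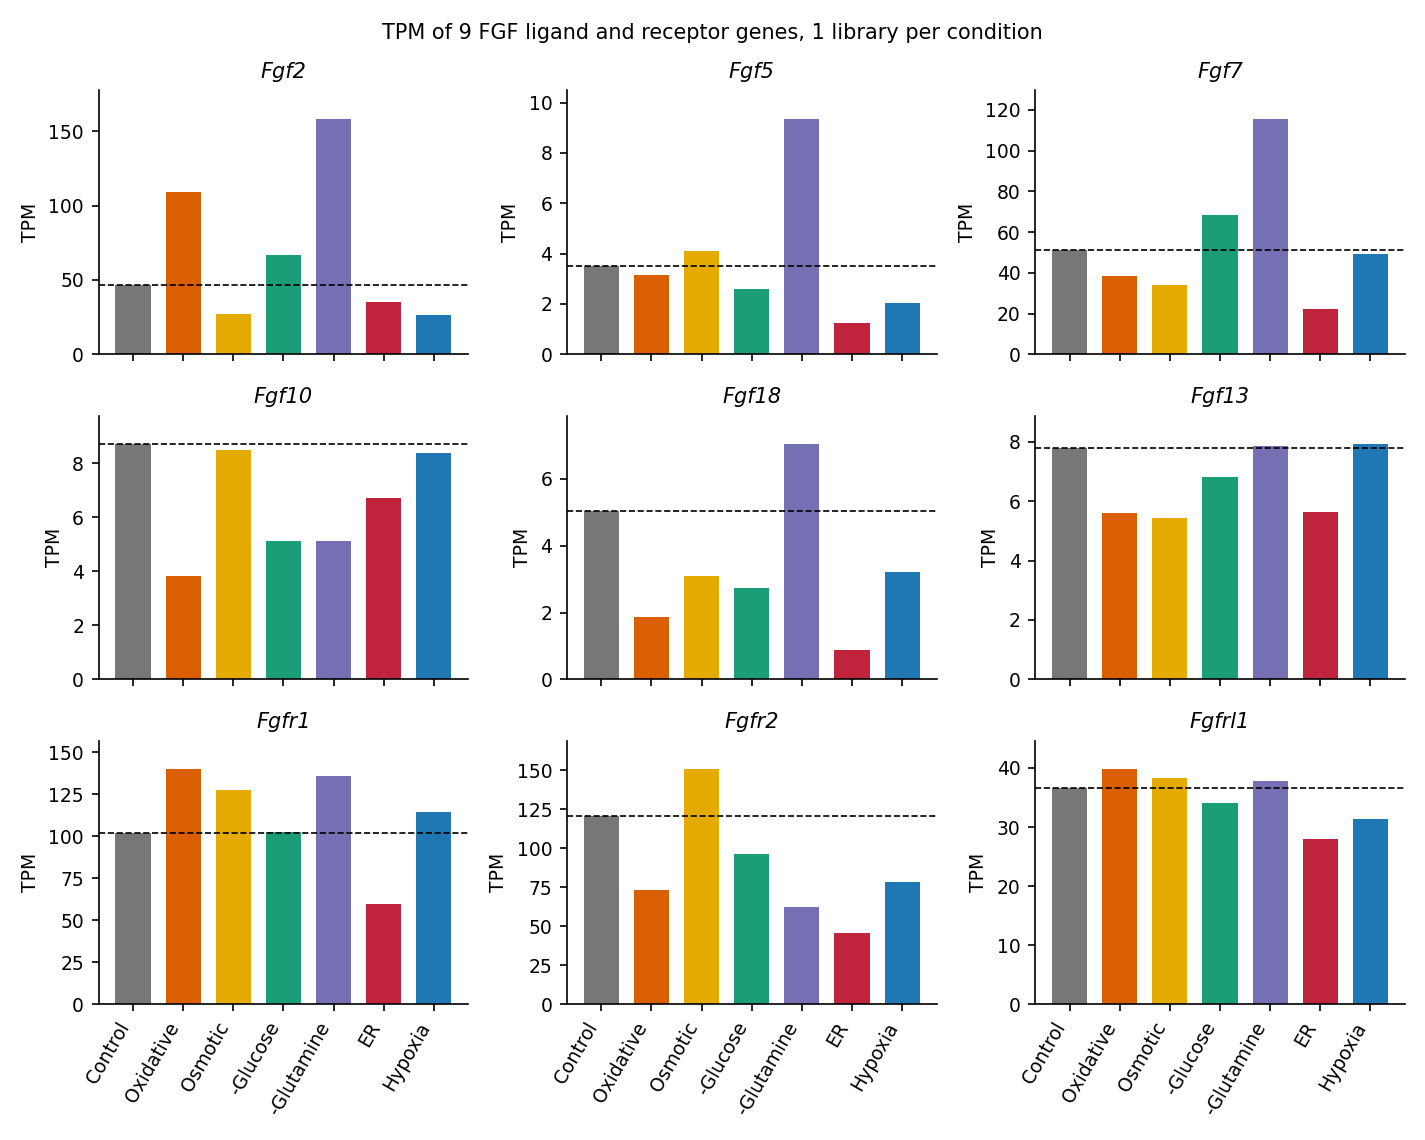
TPM of each of the 9 genes (vertical axes, linear from 0, scaled per gene) in the 7 libraries, with 1 bar per library and a dashed line at the control. Fgf2, Fgf5, Fgf7 and Fgf18 have their tallest bar in glutamine depletion, while Fgf13 and Fgfrl1 vary little.

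Glutamine depletion held 3 of the 4 rises, among them the largest. In this library 3 of the 9 genes rose and 0 fell, where 3.21% of all kept genes rose and 3.21% fell, and the risers were the ligand genes Fgf2, Fgf5 and Fgf7. Their log2 changes were 1.73, 1.196 and 1.16. Fgfr2 lay just inside the 2-fold line on the other side, at a log2 change of -0.95.

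In ER stress the balance was the opposite. All 9 genes were below the control (8 of 9 against the median of the other 6 libraries, Fgf10 being the exception) and 4 of them fell, namely Fgf18 (log2 change -1.69), Fgfr2 (-1.38), Fgf7 (-1.18) and Fgf5 (-1.002), in a library where 11.0% of all kept genes fell and 8.60% rose. The median log2 change of the 9 genes was -0.76, and that of all kept genes was 0. Fgf5 lay at the line itself. Against the median of the other 6 libraries, Fgfr2 (-0.91) and Fgf5 (-0.94) were inside 2-fold and Fgfr1 (-1.01) was past it.

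Oxidative stress divided the ligands. Of the 9 genes, 1 rose, Fgf2 (log2 change 1.198), where 3.94% of all kept genes rose, and 2 fell, Fgf18 (-1.07) and Fgf10 (-1.01), where 4.85% fell. The median of all kept genes was itself at -0.16 in this library, and relative to it Fgf18 and Fgf10 were at -0.92 and -0.85, inside the 2-fold line. In osmotic stress, glucose depletion and hypoxia 0 of the 9 genes passed 2-fold. Of all kept genes, 3.08% rose and 8.76% fell in osmotic stress, 1.83% rose and 2.41% fell in glucose depletion, and 3.57% rose and 2.64% fell in hypoxia. The median of all kept genes was -0.12 in osmotic stress and within 0.1 of 0 in the remaining libraries. Their spread differed, with a 5th to 95th percentile of -0.67 to 0.47 in glucose depletion, -0.73 to 0.78 in hypoxia and -1.48 to 1.30 in ER stress. Fgf2 (0.50) and Fgf18 (-0.69) lay outside that range in glucose depletion, and Fgf2 (-0.80) in hypoxia. In ER stress Fgf18 lay outside it, whereas Fgfr2, Fgf7 and Fgf5 lay inside. The 9 genes are protein-coding, and among the 11300 kept protein-coding genes the share past 2-fold in either direction was lower than among all kept genes. It was 5.25% against 8.78% after arsenite, 8.75% against 11.8% after NaCl, 1.04% against 4.24% without glucose, 3.75% against 6.41% without glutamine, 16.9% against 19.6% in ER stress and 2.95% against 6.21% in hypoxia. All 6 comparisons share the single control library.

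**Figure D2:**
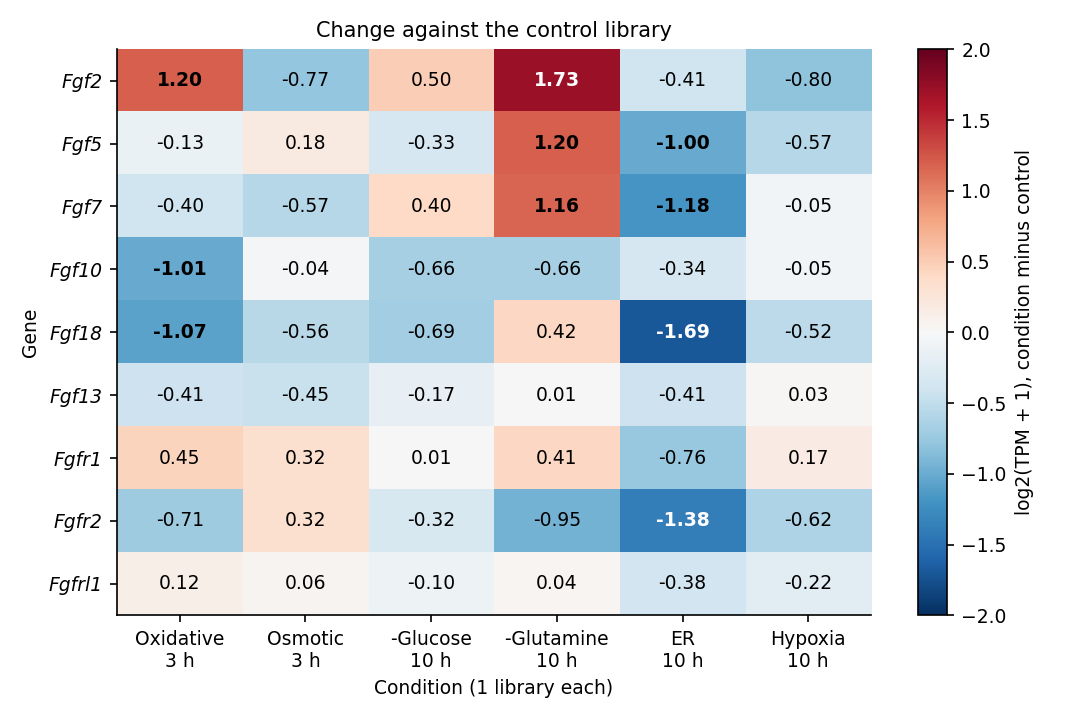
Change in log2(TPM + 1) against the control for the 9 genes (rows) in the 6 conditions (columns, with treatment time), on a colour scale from -2 to 2, with values past 2-fold in bold. The ER column is negative throughout, and the rises stand in the Fgf2, Fgf5 and Fgf7 rows under glutamine depletion and in the Fgf2 row under oxidative stress.

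Fgf2, the broadly acting ligand that leaves cells without a classical signal peptide, moved most upward. It stood at 46.9 TPM in the control, 109 in oxidative stress, 27.1 in osmotic stress, 66.7 without glucose, 158 without glutamine, 35.2 in ER stress and 26.4 in hypoxia. Glutamine depletion and arsenite were thus high, glucose depletion intermediate, and the other 3 stresses below the control. The glutamine-depleted level was 3.38 times and the arsenite level 2.32 times that of the control. Of all kept genes, 98.5% had a lower change in glutamine depletion and 96.9% in oxidative stress, while in hypoxia 4.1% had a lower one. Between treatments of equal length, Fgf2 was 4.03 times higher in arsenite than in NaCl at 3 hours, and 5.99 times higher in glutamine depletion than in hypoxia at 10 hours.

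The gene of Fgf2 (ENSMUSG00000037225, chromosome 3 from 37348346 to 37410108, plus strand, GRCm38) overlaps Nudt6 on the opposite strand. In GENCODE M21 they share 640 of the 6782 exon bases of Fgf2, and the quantification was run with default settings, for which no use of strand is stated, so reads from the shared bases cannot be assigned with certainty. Nudt6 stood at 1.57 TPM in the control, 1.501 in oxidative stress, 4.82 in osmotic stress, 2.66 without glucose, 0.903 without glutamine, 11.8 in ER stress and 2.62 in hypoxia. Nudt6 was lowest where Fgf2 was highest, but its highest level was in ER stress, where Fgf2 was at 35.2 TPM. Fgf2 was lowest in hypoxia, at 26.4 TPM, and Nudt6 remained below Fgf2 in every library. Across the 7 libraries the log2(TPM + 1) values of the pair had a Pearson r of -0.67, a description for genes that share exon bases.

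Fgf7, which encodes keratinocyte growth factor, an epithelial mitogen made by mesenchyme, was the other abundant ligand. Its levels were 51.3 TPM in the control, 38.6 in oxidative stress, 34.2 in osmotic stress, 68.2 without glucose, 116 without glutamine, 22.1 in ER stress and 49.4 in hypoxia. It rose in glutamine depletion, to 2.26 times the control, and fell in ER stress, to 0.43 times. Fgf7 (ENSMUSG00000027208) lies on chromosome 2 from 126034658 to 126091185. Its level parted from that of Fgf2 in arsenite, where Fgf2 rose and Fgf7 had a log2 change of -0.40, in ER stress, where Fgf7 fell and Fgf2 was at -0.41, and in hypoxia, where Fgf2 was at -0.80 and Fgf7 at -0.05.

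Fgf10, the ligand needed for limb and lung budding, had its highest level in the control. The levels were 8.71 TPM in the control, 3.83 in oxidative stress, 8.47 in osmotic stress, 5.13 without glucose, 5.13 without glutamine, 6.69 in ER stress and 8.38 in hypoxia. Osmotic stress and hypoxia left it near the control, both nutrient depletions gave the same lower level, and arsenite the lowest. Although Fgf7 and Fgf10 share a receptor form, their levels did not move together under nutrient depletion, with log2 changes of 0.40 and -0.66 without glucose and of 1.16 and -0.66 without glutamine. The ratio of Fgf7 to Fgf10 was 5.88 in the control, 10.1 after arsenite, 4.03 after NaCl, 13.3 without glucose, 22.5 without glutamine, 3.30 in ER stress and 5.89 in hypoxia. Fgf10 (ENSMUSG00000021732, chromosome 13 from 118669791 to 118792115) shares 123 of 4601 exon bases with the antisense gene Gm16263, which lay between 0.442 and 1.97 TPM.

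Fgf5, known for ending the growth phase of the hair follicle, was a low-level gene that passed 2-fold in opposite directions in 2 libraries. Its levels were 3.52 TPM in the control, 3.14 in oxidative stress, 4.12 in osmotic stress, 2.59 without glucose, 9.36 without glutamine, 1.26 in ER stress and 2.05 in hypoxia. The glutamine-depleted level was 2.66 times the control and 7.45 times the ER stress level, the lowest. With a pseudocount of 5 TPM its log2 changes were 0.75 without glutamine and -0.45 in ER stress, both inside 2-fold, and against the median of the other 6 libraries the ER stress value was -0.94. Fgf5 (ENSMUSG00000029337) lies on chromosome 5 from 98254184 to 98277030.

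Fgf18, a regulator of cartilage and bone growth, had the widest range of the 9 genes by ratio of TPM (8.11). On the log2(TPM + 1) scale its span was 2.11, less than for Fgf2 (2.54), Fgf7 (2.34) and Fgf5 (2.20). The Fgf18 levels were 5.04 TPM in the control, 1.87 in oxidative stress, 3.10 in osmotic stress, 2.73 without glucose, 7.05 without glutamine, 0.869 in ER stress and 3.21 in hypoxia. Glutamine depletion was the single condition above the control, and the ER stress level was 0.17 times the control and below the pseudocount of 1 TPM. In ER stress 3.8% of all kept genes had a lower change. With a pseudocount of 5 TPM its log2 changes were -0.77 in ER stress and -0.55 after arsenite, inside 2-fold. The chondrogenic marker sum moved the same way in ER stress, 9.71 TPM against 28.6 in the control, but stood at 33.7 in oxidative stress, where Fgf18 fell, and its part in the Fgf18 values was not tested. Fgf18 (ENSMUSG00000057967) lies on the minus strand of chromosome 11 from 33117430 to 33147400.

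Fgf13, an intracellular protein that binds sodium channels and microtubules rather than FGF receptors, stayed within 2-fold in every library. It ranged from 5.44 TPM in osmotic stress to 7.93 in hypoxia, with 7.77 in the control, 5.61 in oxidative stress, 6.80 without glucose, 7.85 without glutamine and 5.62 in ER stress. Its highest level was 1.46 times its lowest. Of 7 genes listed as its binding partners, mostly sodium channel genes, 0 passed the expression filter. Fgf13 (ENSMUSG00000031137) spans chromosome X from 59062145 to 59568071.

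The summed level of the 5 secreted ligand genes followed Fgf2 and Fgf7. It was 115 TPM in the control, 156 in oxidative stress, 76.9 in osmotic stress, 145 without glucose, 296 without glutamine, 66.1 in ER stress and 89.4 in hypoxia. Fgf2 made up 40.6% of this sum in the control, 69.7% after arsenite and 29.6% in hypoxia, and Fgf7 made up 44.4%, 24.7% and 55.2%. The remaining 3 ligand genes together held 15.0% of the sum in the control, 5.65% after arsenite and 20.4% after NaCl.

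**Figure D3:**
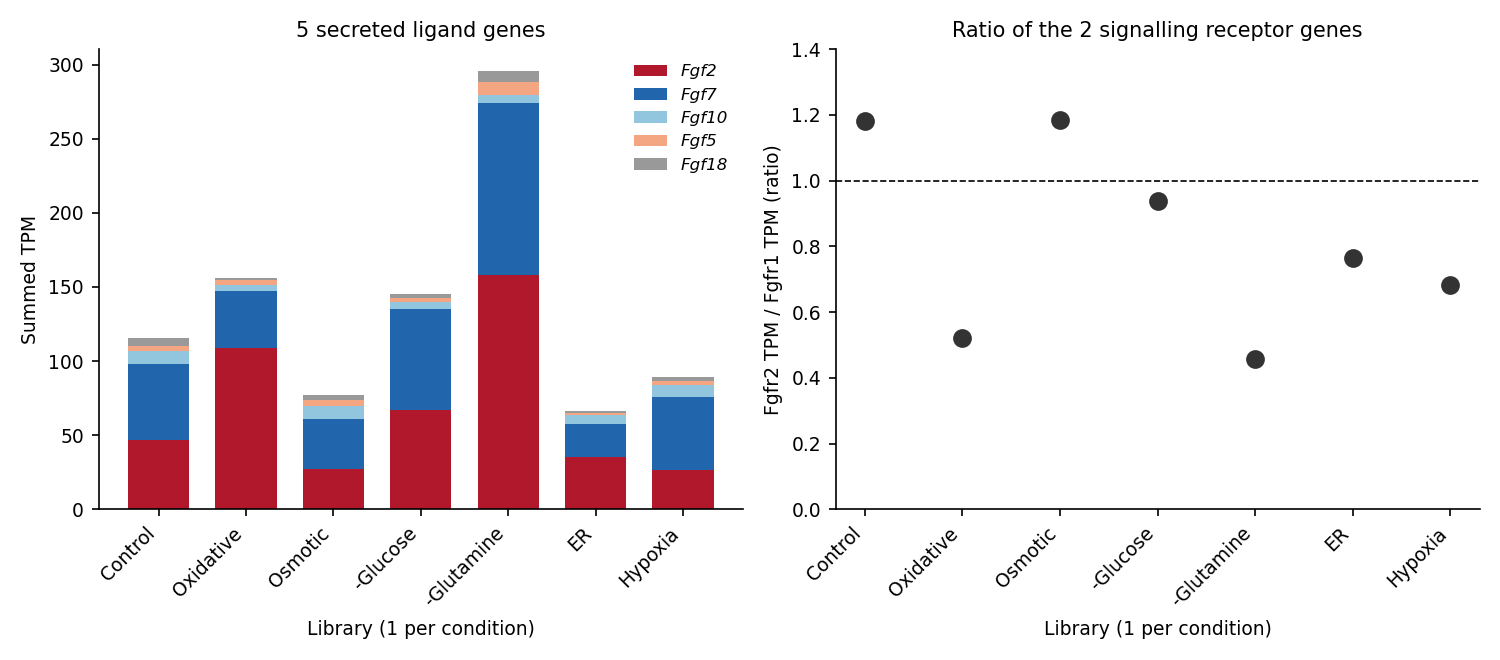
Left, summed TPM of the 5 secreted ligand genes in each library, stacked by gene. Right, TPM of Fgfr2 divided by TPM of Fgfr1 in the same libraries, with a dashed line at equality. Glutamine depletion has the tallest stack (296 TPM) and the lowest receptor ratio (0.457).

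Fgfr1, the main FGF receptor gene of mesenchyme, was steady outside ER stress. Its levels were 102 TPM in the control, 140.2 in oxidative stress, 128 in osmotic stress, 103 without glucose, 136 without glutamine, 59.7 in ER stress and 115 in hypoxia. No change passed 2-fold, and ER stress, at a log2 change of -0.76, was the single condition below the control. Against the median of the other 6 libraries the ER stress value was -1.01, past 2-fold. Fgfr1 (ENSMUSG00000031565) lies on chromosome 8 from 25513654 to 25575718.

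Fgfr2 varied more. Its levels were 121 TPM in the control, 73.3 in oxidative stress, 151 in osmotic stress, 96.4 without glucose, 62.2 without glutamine, 45.7 in ER stress and 78.3 in hypoxia. Osmotic stress alone was above the control, and ER stress, at 0.38 times the control, was the lowest. The ratio of Fgfr2 to Fgfr1 was 1.18 in the control and 1.18 in osmotic stress, 0.938 in glucose depletion, 0.765 in ER stress, 0.682 in hypoxia, 0.523 in oxidative stress and 0.457 in glutamine depletion. Fgfr1 was therefore the more abundant receptor gene in 5 of the 7 libraries, and by the widest margin in the libraries in which Fgf2 rose.

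Values for Fgfr2 are summed over transcripts, so its epithelial and mesenchymal splice forms were not separated. Esrp1, an epithelial splicing regulator, was at 0 TPM in 6 libraries and at 0.42 in ER stress, and Esrp2 lay between 1.58 and 4.21 TPM. Fgfr2 (ENSMUSG00000030849) lies on the minus strand of chromosome 7, and of its 27 annotated transcripts 1 reaches 133123350 and shares 314 exon bases with Ctbp2, while the others end at or before 130266263. Ctbp2 was at 136 TPM in ER stress, where Fgfr2 was lowest, against 45.9 in the control, and its part in the Fgfr2 values was not tested.

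By the ratio of highest to lowest TPM, Fgfrl1, the receptor without a kinase domain, changed least, with Fgf13 close behind. Fgfrl1 ranged from 27.9 TPM in ER stress to 39.8 in oxidative stress, with 36.7 in the control, 38.3 in osmotic stress, 34.1 without glucose, 37.7 without glutamine and 31.4 in hypoxia. Its highest level was 1.43 times its lowest, against 1.46 for Fgf13. The log2 changes ran from -0.38 to 0.12 for Fgfrl1 and from -0.45 to 0.03 for Fgf13. Fgfrl1 (ENSMUSG00000008090) lies on chromosome 5 from 108692382 to 108706924.

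**Figure D4:**
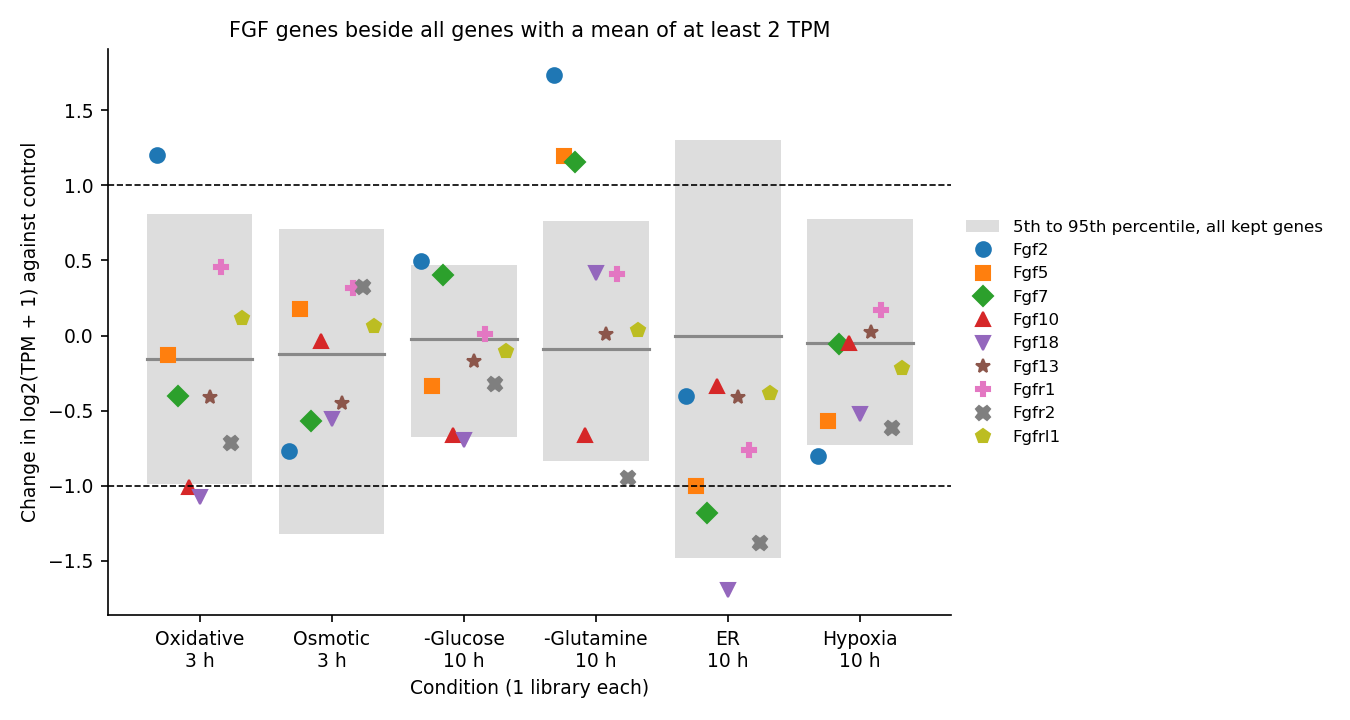
Change in log2(TPM + 1) against the control (vertical axis) for the 9 genes (symbols) in each condition, beside the range from the 5th to the 95th percentile of the 12909 kept genes (grey) and their median (line), with dashed lines at 2-fold. Among the points outside the grey range are Fgf2, Fgf5 and Fgf7 above it in glutamine depletion and Fgf18 below it in ER stress.

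Other genes of the FGF family were scarce in these cells. Of 16 further family genes, 12 stayed under 1 TPM in every library, 2 of them at 0 throughout. The 1 that passed the filter was the stress hormone gene Fgf21, at 0.528 TPM in the control. It was at 19.6 in ER stress, a level without which it would not have passed. The other 3 that exceeded 1 TPM did not pass it. Of these, Fgf16 was highest at 3.44 TPM in ER stress, Fgf9 at 2.30 TPM in osmotic stress, and Fgf11 at 2.0 TPM in hypoxia against 0.346 in the control. Among 4 further receptor and co-receptor genes, Fgfr3 alone passed the filter, with 3.41 TPM in the control and 0.966 in ER stress, where it fell by 1.17 on the log2 scale. Fgfr4 and the Klotho genes Kl and Klb, co-receptors for the hormonal FGFs, stayed under the filter.

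Feedback inhibitors of the pathway had most of their rises in the 2 libraries in which Fgf2 rose. Of 10 kept feedback genes, 6 rose in glutamine depletion and 6 rose and 1 fell in oxidative stress, beside the shares of all kept genes given above, with medians of 1.16 and 1.05. Spred2, an inhibitor of RAF activation, went from 18.5 to 74.9 TPM in glutamine depletion and to 40.0 in oxidative stress. Dusp5, a nuclear ERK phosphatase, went from 17.0 to 61.8 and 58.7 TPM. Spry2, a Sprouty inhibitor of receptor signalling, was highest in osmotic stress, at 68.0 TPM against 19.6 in the control. The gene that fell was Spry1, at 6.78 TPM in oxidative stress against 21.5 in the control. In osmotic stress 2 of the 10 rose, where 3.08% of all kept genes rose, and in ER stress 1, where 8.60% rose. Fgf2 was below the control in both. In glucose depletion and hypoxia 0 of the 10 passed 2-fold. A part of FGF signalling in the changes of these feedback genes was not tested.

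Among 9 kept transcription targets of the pathway, 4 rose in glutamine depletion (3.21% of all kept genes), 3 in oxidative stress (3.94%), 4 in ER stress (8.60%) and 2 in osmotic stress (3.08%), and 0 fell in any library. Egr1, an immediate early transcription factor gene, went from 52.9 TPM in the control to 161 in glutamine depletion and 121 in oxidative stress. Etv1, Etv4 and Etv5 were inside 2-fold in both of these libraries. Their log2 changes were -0.11, 0.09 and 0.42 in glutamine depletion and 0.43, 0.50 and 0.18 in oxidative stress. Etv1 rose in osmotic stress (1.09) and Etv5 in ER stress (1.29), where Fgf2 was below the control. Myc was highest in ER stress, at 265 TPM against 56.8, where Fgf2 was below the control. Fosl1, an AP-1 subunit gene, rose after arsenite, NaCl, thapsigargin and glutamine removal, at 134, 101, 115 and 113 TPM against 49.4 in the control. These genes answer many signals besides FGF, and a part of FGF signalling in their changes was not tested.

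Of 11 kept heparan sulfate core protein genes, 4 fell in ER stress, where 11.0% of all kept genes fell, and 0 passed 2-fold in the other conditions. ER stress was also the library in which most genes of any kind passed 2-fold (19.6% of all kept genes). Sdc4, a syndecan at the cell surface, went from 144 to 22.8 TPM, Sdc1 from 166 to 49.0 and Sdc3 from 126 to 48.5. The median log2 change of the list in ER stress was -0.63, against 0 for all kept genes. Among 15 kept enzymes of heparan sulfate, 2 rose and 2 fell in ER stress, near the 8.60% and 11.0% of all kept genes, with Hs3st3b1, a sulfotransferase gene, at 12.0 TPM against 4.76 and Sulf2, which removes sulfate groups, at 74.5 against 165. Hpse, the gene of the chain-cutting heparanase, stood at 5.29 TPM in hypoxia against 1.35 in the control, and it passed the expression filter only through its hypoxia level.

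Of 21 kept adaptor and kinase genes of the pathway, 1 rose in glutamine depletion and 1 in hypoxia, shares near the 3.21% and 3.57% of all kept genes. Cbl, a ubiquitin ligase gene, went from 12.1 to 25.3 TPM in glutamine depletion, just past the 2-fold line, and Map2k1, which encodes the kinase MEK1, from 55.7 to 142 TPM in hypoxia. Of the 4 kept genes for binding and matrix partners, Flrt1, which encodes a membrane protein that binds FGF receptors, fell in ER stress, from 4.08 to 0.534 TPM. Of the 3 kept splicing regulators of Fgfr2, 0 passed 2-fold.

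**Figure D5:**
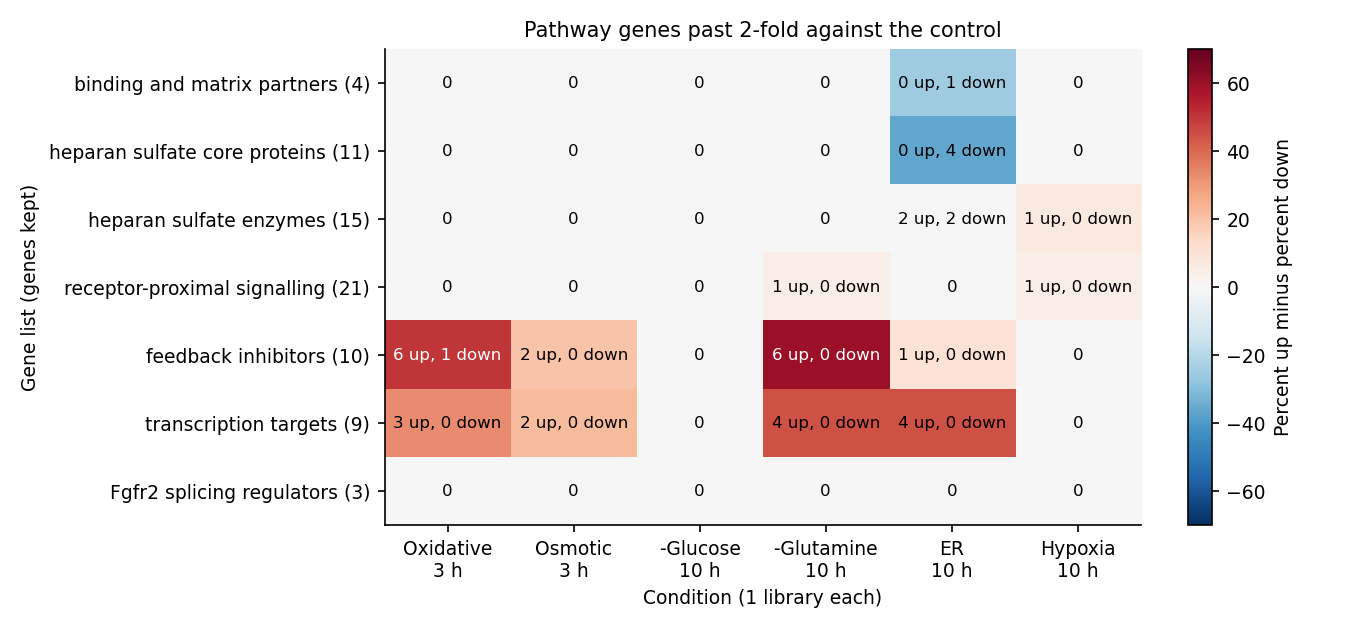
Number of kept genes past 2-fold up and down in 7 lists of the FGF pathway (rows, with the number of kept genes) in each condition (columns), coloured by the percent up minus the percent down. The feedback inhibitors stand out upward in oxidative stress and glutamine depletion, and the transcription targets upward in glutamine depletion and ER stress. The heparan sulfate core proteins stand out downward in ER stress.

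The genes with the most similar patterns were sought among 8265 protein-coding genes whose mean level reached 10 TPM, by Pearson r of log2(TPM + 1) over the 7 libraries. With so few libraries and so many genes, high values of r are found for any pattern. Among those nearest to Fgf2 were Abhd2 (0.990) and Zfp697 (0.979), and the 3 nearest to Fgf7 were Gadd45b (0.974), Creb3l1 (0.968) and Has2 (0.955). Nearest to Fgf5 were Il1rl2, Gpd2 and Flt1 (0.965 to 0.939), to Fgf10 Galt, Sept8 and Adamts5 (0.982 to 0.968), to Fgf18 Plcb3, Atp2c1 and Mcub (0.955 to 0.949), and to Fgfr2 Cyba, Tor1aip1 and Sh3glb2 (0.989 to 0.971).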

How the data were processed

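RNA-seq libraries were made with a stranded mRNA kit and sequenced as read pairs of 76 bases. Per the labels and the study's methods, the authors quantified the reads with kallisto 0.43.1 at default settings and the mouse cDNA set of Ensembl release 90 (build GRCm38). The deposited TPM are gene sums over transcripts, with 1 library per condition. No filter or pooling is stated, and each of the 7 columns summed to 1000000. TPM is a share, so a gene's value depends on all others in its library, and the depth behind it is unknown.

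From these values, the control was subtracted on the log2(TPM + 1) scale, and changes above 1 or below -1 (2-fold) were counted, with the pseudocount and the fold of the study's methods. Genes were kept if their mean reached 2 TPM. No test was run, since each group held 1 library. The 9 genes, the pathway and marker lists, and the rules were chosen with earlier results of these data known. The text names every one of the 9 genes, of each pathway list at most the 3 kept genes with the largest change past 2-fold in any condition, the 3 genes of most similar pattern for each of the 9 past 2-fold, 6 treatment checks, of which Chac1 (26.2 TPM in the control and 86.8 in glutamine depletion) is given here, and genes with overlapping exons. Chac1 did not follow its treatment alone, as it reached 224 TPM in ER stress. Fgf16, Fgf9, Fgf11, Spry1, Etv1, Etv4, Etv5 and the genes under the filter were named after their values were seen. Gene types, positions and overlaps came from GENCODE M21 (GRCm38), in which 132 kept genes had no match, and promoter windows from RefSeq on GRCm38.p6. A planned comparison of protein sequences was not run, and 1 of the genes of similar pattern is not reported here. Counting was tested on made-up libraries. Scripts ran in Python 3.11.15 with pandas 2.3.3, numpy 2.4.6 and, for plots, matplotlib 3.10.9.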

Additional observations from a re-analysis of the deposited data

Results flagged for a closer look

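Fgf7 and Fgf5 passed 2-fold in opposite directions in a pair of conditions of equal length. Fgf7 had a log2 change of 1.16 in glutamine depletion and -1.18 in ER stress, and its level in glutamine depletion was 5.24 times that in ER stress. Fgf5 had 1.196 in glutamine depletion and -1.002 in ER stress, the latter at the 2-fold line. The difference between the conditions was not tested, since each rests on 1 library and both share the control. Fgf7 passed 2-fold in both conditions with pseudocounts of 0.1 and 5 TPM, after centring, without mitochondrially encoded genes and against the median of the other 6 libraries, whereas Fgf5 passed in neither with a pseudocount of 5 TPM (0.75 and -0.45), and not in ER stress against the median of the other 6 libraries (-0.94).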

How the results depend on the processing

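No paired analysis was possible because each condition had 1 library, and for the same reason no library could be left out of a group. Of the 9 genes in 6 conditions, 10 changes passed 2-fold. This total was 10 with a pseudocount of 0.1 TPM, without a filter and against the median of the other 6 libraries, 9 without mitochondrially encoded genes, 8 after centring on the median of all kept genes, 5 with a pseudocount of 5 TPM, 5 with a filter of 10 TPM (which kept 5 genes), 19 at a 1.5-fold and 2 at a 3-fold threshold. Oxidative stress went from 3 changes to 1 with the pseudocount of 5 TPM, the filter of 10 TPM, centring or the median reference, to 2 without mitochondrially encoded genes, and to 0 at 3-fold. ER stress went from 4 to 2 with the pseudocount of 5 TPM or the filter of 10 TPM, to 3 with the median reference and to 1 at 3-fold. Glutamine depletion went from 3 to 2 with the pseudocount of 5 TPM or the filter of 10 TPM, to 4 with the median reference (Fgf18 at 1.04), to 5 at 1.5-fold and to 1 at 3-fold. Osmotic stress and hypoxia went from 0 to 1 each with the median reference, where Fgf2 was at -1.02 and -1.05, and to 1 and 2 at 1.5-fold, and glucose depletion went from 0 to 2 at 1.5-fold. Fgf2 in glutamine depletion and oxidative stress and Fgf7 in glutamine depletion and ER stress kept their calls at 2-fold under all 7 other settings. The cause of the differences between settings was not tested, beyond the filter of 10 TPM leaving fewer genes.

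Signs of changes inside 2-fold were less firm. Centring turned Fgf5 in oxidative stress and Fgf10 in osmotic stress positive. Against the median of the other 6 libraries, 8 of the 9 genes instead of 9 were lower in ER stress, Fgf10 being the exception. With that reference the sign also changed for Fgf5 after arsenite, Fgf10 and Fgf18 after NaCl, Fgfr2, Fgf13 and Fgfr1 without glucose, and Fgf10, Fgf7 and Fgf18 in hypoxia, where 4 genes instead of 7 were lower.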

Other observations

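The 9 genes did not move as a block. Over the 7 libraries, the log2(TPM + 1) values of Fgfr1 and Fgfrl1 had a Pearson r of 0.867, Fgf7 and Fgf18 of 0.847, and Fgf5 and Fgf18 of 0.835, the 3 highest of the 36 pairs. The lowest was Fgf2 with Fgf10, at -0.826, followed by Fgf2 with Fgfr2 at -0.32. These values rest on 7 libraries of unlike treatment and 1 library each, and are given as a description.

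In hypoxia, where Vegfa rose, 0 of the 9 genes passed 2-fold. Fgf2 had its lowest level there, at 26.4 TPM, close to 27.1 TPM in osmotic stress, and the levels of Fgf7 and Fgf10 were 0.963 and 0.961 times the control.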
